A study of Mus musculus with 10 samples.

Results

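The proteasome genes described here are all genes on the array whose platform symbol starts with Psma to Psmg and a number, or with Pomp, leaving out the immunoproteasome subunits Psmb8, Psmb9 and Psmb10. The rule gave 48 of 19935 genes. It matched symbols, not measured values, but was chosen with earlier results of these data known. By role they were 8 genes of the alpha ring and 8 of the beta ring of the 20S core particle, 6 ATPases and 11 non-ATPase subunits of the 19S cap, 8 assembly factors and 5 other activators or inhibitors. The remaining 2, Psmc3ip and Psme3ip1, matched by name alone. Psmc3ip encodes a meiotic recombination factor and Psme3ip1 a protein that binds Psme3, and neither is a proteasome subunit.

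RNA from livers of 5 NML-KO mice and 5 wild-type (WT) mice, all 12 weeks old, was hybridised to whole-transcript arrays, 1 array per liver. NML-KO stands for a knockout of nucleomethylin, which is encoded by Rrp8, sits in the nucleolus and belongs to a complex that silences ribosomal RNA genes. The labels name no strain, sex, deleted part of the gene, feeding state, time of dissection or processing batch. A second comparison follows the measured level of Dbp, a transcription factor gene of the circadian clock output. Livers with a log2 Dbp intensity above 8 are called Dbp-high here, and the others Dbp-low. Dbp-high livers were NML-KO 1, 2 and 3 (9.68, 9.71 and 9.71) and WT 1 and 2 (10.23 and 9.87), and Dbp-low livers were NML-KO 4 and 5 (6.60 and 6.47) and WT 3, 4 and 5 (6.27, 6.58 and 6.20). These sets come from the measurements and are not groups of the study, so that whatever else differed between the 2 sets of animals cannot be told apart from Dbp.

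The proteasome degrades proteins tagged with ubiquitin. Its core is a barrel of stacked alpha and beta rings whose protein-cutting sites lie on the inner faces of 3 beta subunits, and its cap binds the tag, removes it and threads the unfolded protein into the barrel with a ring of ATPases. Subunits are needed in fixed proportion, and dedicated chaperones put the rings together. In the liver, as in other tissues, the genes are expressed in nearly all cells, and the transcription factor NRF1 (Nfe2l1) raises many of them together when proteasome activity falls short.

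Rrp8 itself had log2 intensities of 6.99, 6.78, 6.65, 7.19 and 6.75 in NML-KO livers, against 7.90, 7.66, 7.83, 7.70 and 7.65 in WT livers. Every NML-KO liver lay below every WT liver, at 54.5% of the WT mean (log2 difference -0.88, two-sided exact permutation p = 0.0079, the smallest that 5 against 5 allows). The mean of 7 hepatocyte markers was 13.95 to 14.0 in NML-KO livers and 13.89 to 14.06 in WT livers. Single markers of that list had means of 13.53 to 14.44, near the highest intensities on the arrays. Whether signal still follows amount at that level was not tested. The 6 neutrophil markers, with means of 5.07 to 5.33 in NML-KO and 5.04 to 5.25 in WT livers, and the 6 measured T and B cell markers, with 5.25 to 5.39 in NML-KO and 5.21 to 5.58 in WT livers, stayed within narrow ranges. Both list means lay below the median gene mean of 6.22, where a narrow range cannot show that the number of such cells was steady. Kupffer cell and macrophage markers varied more, from 7.63 to 9.02 in NML-KO livers and from 7.73 to 8.73 in WT livers. These are whole livers, so that fewer cells of a type and less RNA per cell cannot be told apart.

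In NML-KO against WT livers, no proteasome gene passed the threshold. By limma with Benjamini-Hochberg adjustment, 0 of 48 members had an adjusted p below 0.05, against 0% (0 of 19935) of all genes. Rrp8, the knocked-out gene, did not pass either (log2 difference -0.88, limma adjusted p = 0.109), so that a count of 0 does not show that no member changed. Members with an unadjusted p below 0.05 also numbered 0 of 48, against 2.70% of all genes. No member had genotype groups that did not overlap, against 0.406% of all genes. Differences lay between -0.31 and 0.20 on the log2 scale, 25 above 0 and 23 below. The median was 0.0034 over the 16 core genes, 0.0069 over the 17 cap genes, -0.036 over the 8 assembly factors and -0.0033 over the 5 other regulators, beside -0.0065 over all genes.

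The members nearest to the threshold came from different parts of the complex. Psmd8, a non-ATPase subunit of the cap, had log2 intensities of 9.68, 9.85, 9.88, 9.76 and 9.79 in NML-KO livers and 9.71, 9.61, 9.62, 9.73 and 9.74 in WT livers. The groups overlapped, since NML-KO 1 lay below 3 WT livers. The difference was 0.11 (SE 0.05, 95% interval -0.0059 to 0.23, unadjusted p = 0.0602 by limma over all genes). Psme2, a subunit of the interferon-inducible activator ring that can replace the cap, had 8.74, 8.95, 9.17, 9.61 and 9.43 in NML-KO livers and 9.48, 9.34, 9.40, 9.67 and 9.56 in WT livers. NML-KO 1 to 3, all Dbp-high, were the lowest of the 10, and NML-KO 4 and 5 lay among the WT livers. The difference was -0.31 (SE 0.15, 95% interval -0.65 to 0.028, unadjusted p = 0.0684 by limma).

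Psma6, of the alpha ring, had 9.45, 9.52, 9.41, 9.48 and 9.47 in NML-KO livers and 9.03, 9.44, 9.28, 9.41 and 9.45 in WT livers, where WT 1 was the lowest. Its difference was 0.14 (SE 0.08). Pomp, the chaperone that guides assembly of the beta ring, had 8.41, 8.33, 8.48, 8.46 and 8.50 in NML-KO livers and 8.88, 8.63, 8.34, 8.57 and 8.55 in WT livers, where WT 1 was the highest. Its difference was -0.16 (SE 0.09). Psma1, also of the alpha ring, had 10.06, 10.07, 10.04, 9.88 and 9.85 in NML-KO livers and 9.72, 10.10, 9.66, 9.78 and 9.94 in WT livers, and Psmb2, a non-catalytic beta subunit, had 10.07, 9.96, 10.35, 10.36 and 10.30 in NML-KO livers and 10.25, 10.35, 10.27, 10.46 and 10.44 in WT livers.

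Among the ATPases of the cap, Psmc4 had 9.02, 9.11, 9.22, 8.997 and 9.11 in NML-KO livers and 9.27, 9.08, 9.15, 9.14 and 9.24 in WT livers. Psmc2 had 7.81, 7.79, 7.80, 7.99 and 7.89 in NML-KO livers and 7.57, 7.93, 7.80, 7.89 and 7.98 in WT livers. The genotype groups of both overlapped over most of their range. Psme4, a large nuclear activator of the core, had 10.26, 9.86, 9.98, 9.98 and 10.03 in NML-KO livers and 9.77, 9.66, 9.96, 9.95 and 10.10 in WT livers, where WT 1 and WT 2 were the lowest. The differences were 0.14 for Psma1, -0.15 for Psmb2, -0.08 for Psmc4, 0.02 for Psmc2 and 0.13 for Psme4. Psmb1, Psmd7 and Psmd9, whose values per liver follow with the Dbp sets, had -0.16, 0.20 and -0.11. The unadjusted p of these 8 members ran from 0.129 to 0.778 by limma. With the Dbp set as a term in the model, 0 of 48 members passed as well.

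**Figure D1:**
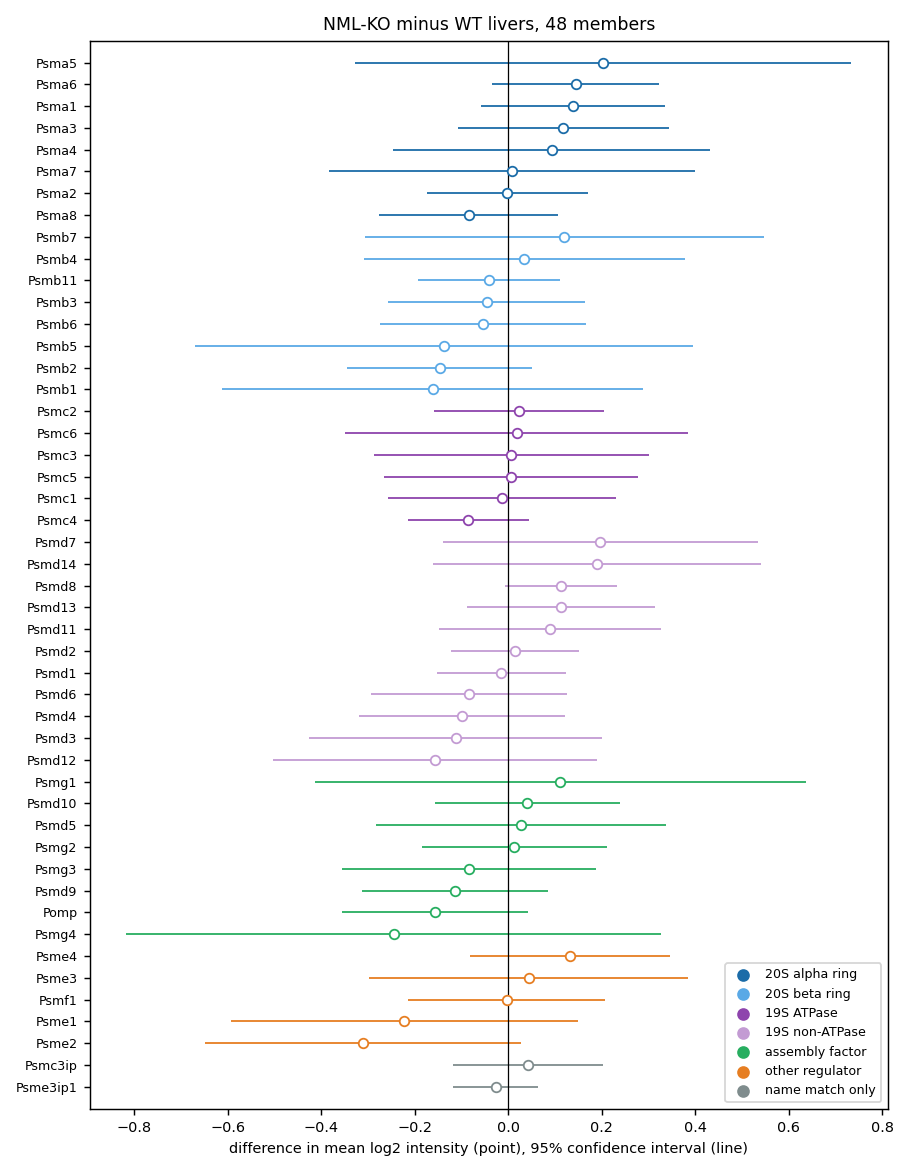
Difference in mean log2 intensity of NML-KO minus WT livers (horizontal axis) for each of the 48 genes (rows, grouped and coloured by role), with points for the estimate and lines for the 95% confidence interval from limma. All points are open, since none had an adjusted p below 0.05, and they lie between -0.31 and 0.20.

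Between Dbp-high and Dbp-low livers, single proteasome subunits differed in opposite directions. With genotype in the model, 15 of 48 members (31.2%) passed an adjusted p of 0.05 by limma, against 12.9% of all genes. Of the members, 8 were higher in Dbp-high livers, against 4.92% of all genes, and 7 were lower, against 7.99% of all genes. At an unadjusted p below 0.05, 26 of 48 members (11 higher and 15 lower) were past the line, against 26.9% of all genes. After quantile normalization the calls over all genes were 1335 higher and 1407 lower, beside 980 higher and 1593 lower as deposited, and those of the members 10 higher and 6 lower. Calls were more frequent among brighter genes: of the 44 members whose mean was at or above the median of all genes, 19 (43.2%) passed when only such genes were tested, against 26.4% of those genes. Counts by class or list below come from the adjustment over all genes. Where 26.4% stands beside them, it comes from the test of brighter genes alone, so the thresholds differ. The sets did not overlap for 9 members, 3 higher and 6 lower, against 12.2% of all genes (5.04% higher and 7.12% lower). The median difference was 0.04 over the core genes and -0.0070 over the cap genes, beside 0.02 over all genes, while the median absolute difference was 0.20 over the 48 members and 0.10 over all genes. Among the brighter genes it was 0.24 over the 44 members and 0.18 over all 9968.

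**Figure D2:**
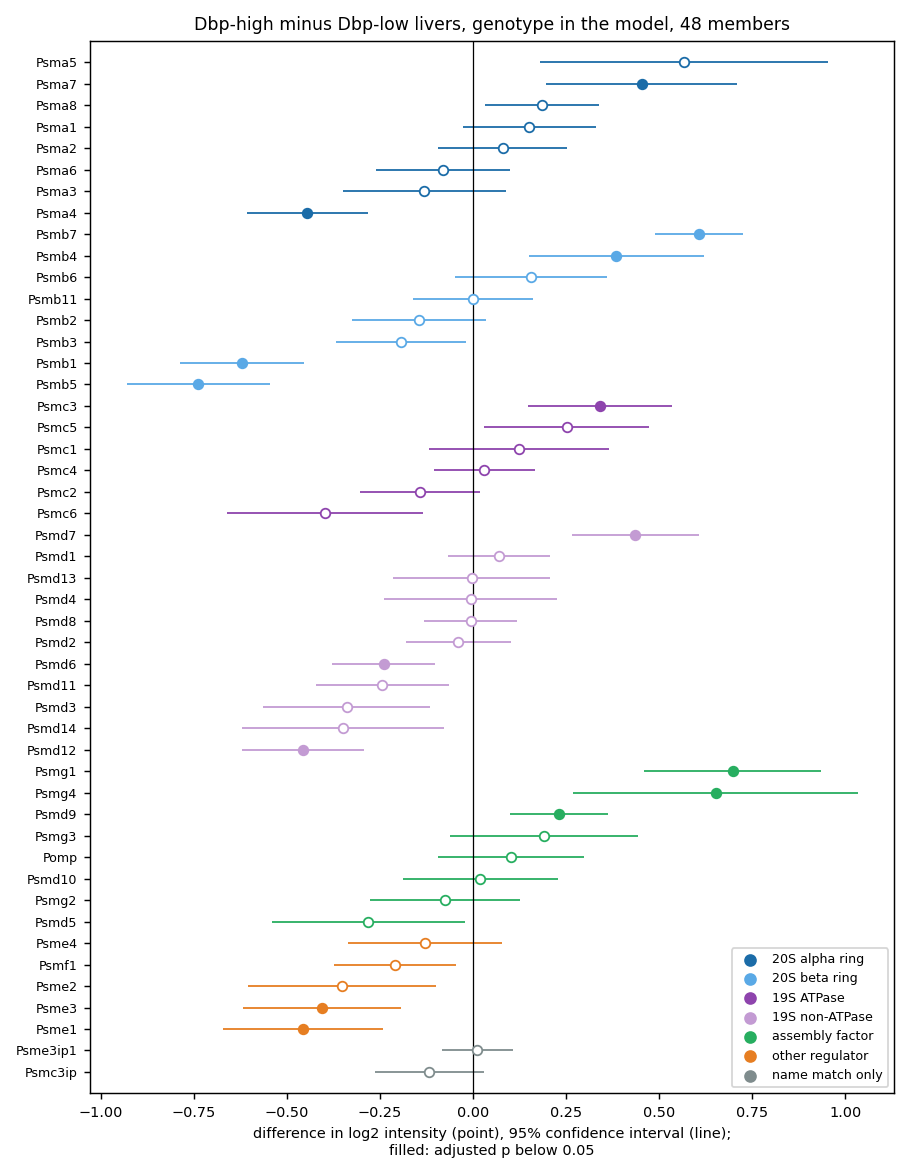
Difference in log2 intensity of Dbp-high minus Dbp-low livers with genotype in the model (horizontal axis) for each of the 48 genes (rows, grouped and coloured by role), with points for the estimate and lines for the 95% confidence interval from limma. Filled points mark the 15 genes with an adjusted p below 0.05, which lie on both sides of 0 within the cap and within each ring of the core.

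The 3 protein-cutting subunits of the standard core did not move together. Psmb5, which carries the chymotrypsin-like site, had 11.18, 10.91 and 11.18 in NML-KO and 10.84 and 11.10 in WT Dbp-high livers, against 11.70 and 11.73 in NML-KO and 11.70, 11.90 and 11.86 in WT Dbp-low livers. Every Dbp-high liver lay below every Dbp-low liver, in both genotypes. The difference was -0.74 (SE 0.09), 1.67-fold lower (limma adjusted p = 0.00064). Psmb7, which carries the trypsin-like site, had 9.94, 9.94 and 9.94 in NML-KO and 9.92 and 10.02 in WT Dbp-high livers, against 9.28 and 9.44 in NML-KO and 9.27, 9.32 and 9.41 in WT Dbp-low livers. Here every Dbp-high liver lay above every Dbp-low liver, by a difference of 0.61 (SE 0.05), 1.52-fold higher (limma adjusted p = 0.00012).

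Psmb6, which carries the caspase-like site, did not pass the threshold. It had 9.06, 9.35 and 9.27 in NML-KO and 9.59 and 9.27 in WT Dbp-high livers, against 9.16 and 9.22 in NML-KO and 9.02, 9.20 and 9.26 in WT Dbp-low livers. The sets overlapped, and the difference was 0.16 (SE 0.09, limma adjusted p = 0.312). Within each liver, the log2 value of Psmb7 minus that of Psmb5 was -1.24, -0.97 and -1.25 in NML-KO and -0.91 and -1.08 in WT Dbp-high livers, against -2.42 and -2.29 in NML-KO and -2.43, -2.58 and -2.45 in WT Dbp-low livers. Only its change between livers can be read, since the 2 values come from different probe sets, and the pair was chosen after its values were seen.

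**Figure D3:**
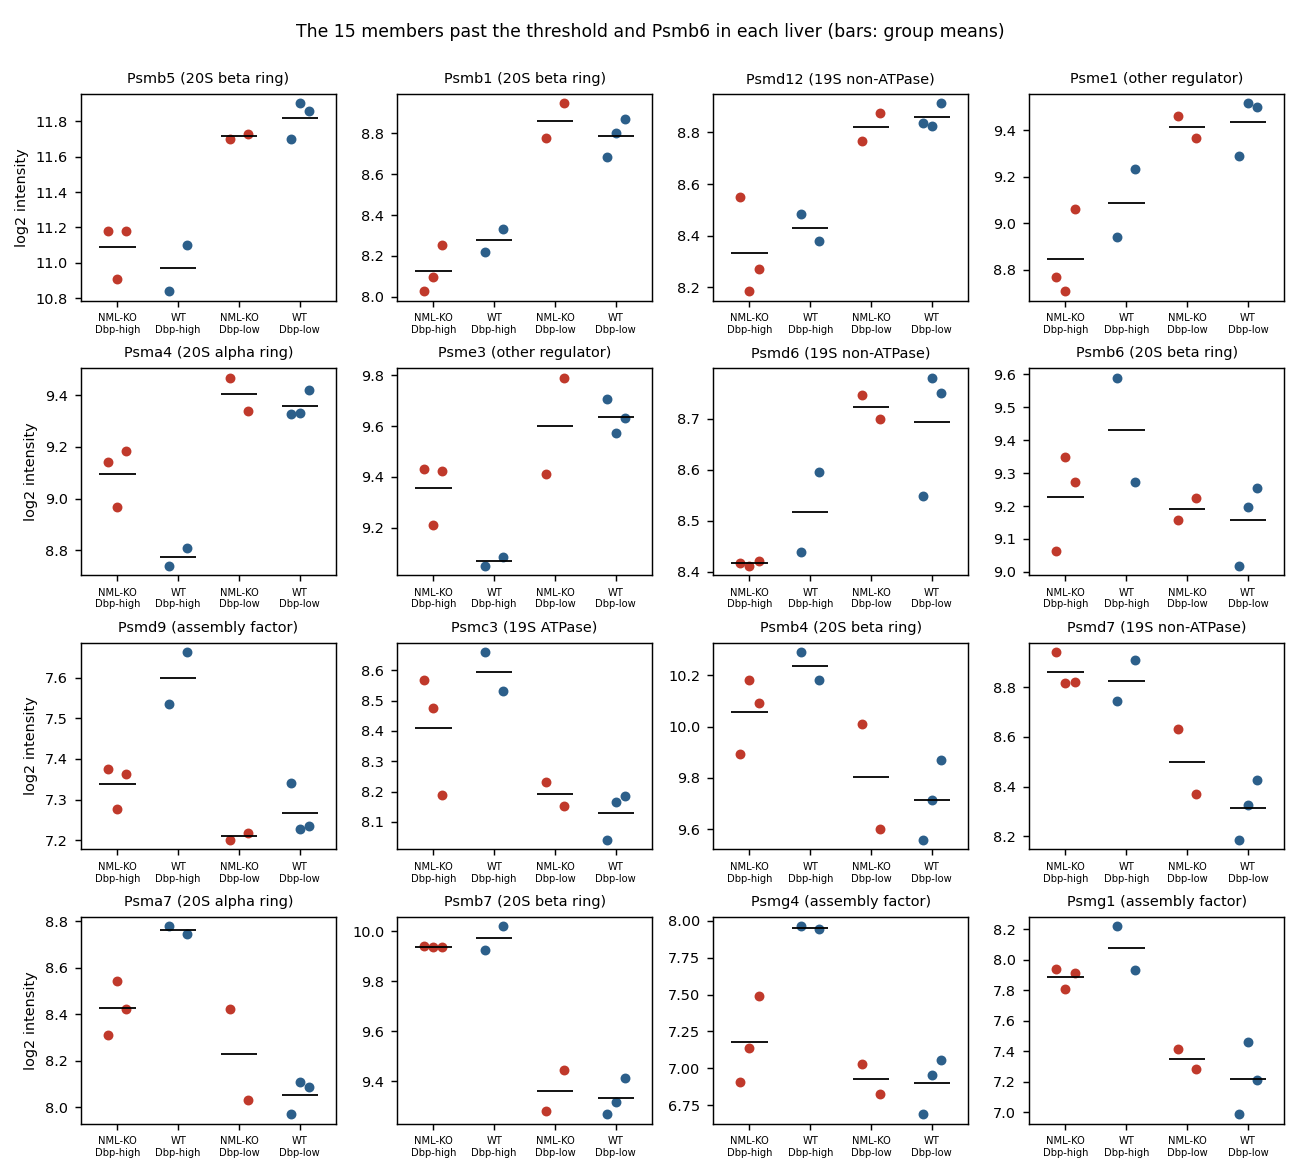
Log2 intensity (vertical axes, scaled per gene) of the 15 members past the threshold in Dbp-high against Dbp-low livers and of Psmb6, with 1 point per liver, NML-KO in red and WT in blue, and a bar for each group mean. Psmb5 and Psmb1 are lower, and Psmb7, Psmd7 and Psmg1 higher, in each Dbp-high liver than in each Dbp-low liver, while the sets of Psmb6 overlap.

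The non-catalytic subunits of the beta ring also split. Psmb1 had 8.03, 8.10 and 8.25 in NML-KO and 8.22 and 8.33 in WT Dbp-high livers, against 8.78 and 8.95 in NML-KO and 8.68, 8.80 and 8.87 in WT Dbp-low livers. No Dbp-high liver reached a Dbp-low one, and the difference was -0.62 (SE 0.07, 1.54-fold lower, limma adjusted p = 0.00075). Psmb4 had 9.90, 10.18 and 10.09 in NML-KO and 10.29 and 10.18 in WT Dbp-high livers, against 10.01 and 9.60 in NML-KO and 9.56, 9.72 and 9.87 in WT Dbp-low livers. NML-KO 4 lay above NML-KO 1, so that the sets overlapped, and the difference was 0.38 (SE 0.10, limma adjusted p = 0.0392). Psmb4 kept its call only without NML-KO 1 or NML-KO 4, and with any other liver left out its adjusted p was 0.0566 to 0.126. Of the rest of the ring, Psmb2 and Psmb3 had -0.15 and -0.19 and did not pass. Psmb11, known as the subunit of thymic cortical epithelium, had 4.76, 4.97 and 4.76 in NML-KO and 4.75 and 4.93 in WT Dbp-high livers, against 4.77 and 4.83 in NML-KO and 5.00, 4.73 and 4.88 in WT Dbp-low livers. The sets overlapped, and the difference was -0.000632. Only 17.3% of genes had a lower mean than Psmb11, so these values do not show that it is expressed in liver.

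In the alpha ring, Psma4 fell and Psma7 rose. Psma4, a subunit at the gate of the barrel, had 9.14, 8.97 and 9.18 in NML-KO and 8.74 and 8.81 in WT Dbp-high livers, against 9.47 and 9.34 in NML-KO and 9.33, 9.33 and 9.42 in WT Dbp-low livers. The sets did not overlap, with WT 1 and 2 the lowest, and the difference was -0.45 (SE 0.07, 1.36-fold lower, limma adjusted p = 0.0037). Psma7 had 8.31, 8.54 and 8.42 in NML-KO and 8.78 and 8.75 in WT Dbp-high livers, against 8.42 and 8.03 in NML-KO and 7.97, 8.11 and 8.09 in WT Dbp-low livers. NML-KO 4 lay above NML-KO 1, and the difference was 0.45 (SE 0.11, 1.37-fold higher, limma adjusted p = 0.0288). Psma7 kept its call without NML-KO 1, 3 or 4, and had an adjusted p of 0.0517 to 0.0889 without any other liver.

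The other 6 alpha genes did not pass, and ranged from -0.13 for Psma3 to 0.57 for Psma5 (SE 0.17, limma adjusted p = 0.0605). Psma5 had 8.44, 8.26 and 8.76 in NML-KO and 8.85 and 8.12 in WT Dbp-high livers, against 8.28 and 7.73 in NML-KO and 7.97, 7.58 and 7.94 in WT Dbp-low livers, so that its spread within a set was wide. Psma8, known as the alpha subunit of male germ cells, had 5.11, 5.08 and 5.16 in NML-KO and 5.30 and 5.31 in WT Dbp-high livers, against 5.16 and 4.83 in NML-KO and 5.06, 5.11 and 4.99 in WT Dbp-low livers. NML-KO 5 was the lowest, and the difference was 0.18 (limma adjusted p = 0.114). Only 24.6% of genes had a lower mean than Psma8, so its values do not show expression in liver either. Psma8 and Psmb11 are both counted among the core genes.

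Among the ATPases of the cap, 1 of 6 passed (16.7%), against 12.9% of all genes and 26.4% of the brighter ones when tested alone. Psmc3 had 8.57, 8.48 and 8.19 in NML-KO and 8.66 and 8.53 in WT Dbp-high livers, against 8.23 and 8.15 in NML-KO and 8.04, 8.16 and 8.19 in WT Dbp-low livers. NML-KO 3 lay among the Dbp-low livers, and the difference was 0.34 (SE 0.09, 1.27-fold higher, limma adjusted p = 0.0287). It kept its call without NML-KO 3 or NML-KO 4, and had an adjusted p of 0.0507 to 0.0863 without any other liver. Psmc6 had 8.46, 8.28 and 8.68 in NML-KO and 8.07 and 8.62 in WT Dbp-high livers, against 8.96 and 8.73 in NML-KO and 8.64, 8.78 and 8.90 in WT Dbp-low livers. Its difference of -0.40 (SE 0.12) had a limma adjusted p of 0.0535, and it passed without NML-KO 3 or WT 2 (0.0230 to 0.0378). Psmc1, Psmc2, Psmc4 and Psmc5 did not pass, at -0.14 to 0.25.

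Among the non-ATPase subunits, 1 of 11 rose and 2 fell (27.3% called), against 12.9% of all genes and 26.4% of the brighter ones when tested alone. Psmd7, which pairs with the deubiquitinase subunit Psmd14 in the lid of the cap, had 8.94, 8.82 and 8.82 in NML-KO and 8.74 and 8.91 in WT Dbp-high livers, against 8.63 and 8.37 in NML-KO and 8.19, 8.33 and 8.43 in WT Dbp-low livers. All Dbp-high livers lay above all Dbp-low livers, and the difference was 0.44 (SE 0.08, 1.35-fold higher, limma adjusted p = 0.0053). Psmd14 itself had -0.35 (SE 0.12, limma adjusted p = 0.0944), with 9.57, 9.51 and 9.84 in NML-KO and 8.98 and 9.26 in WT Dbp-high livers, against 9.59 and 9.86 in NML-KO and 9.66, 9.80 and 9.74 in WT Dbp-low livers. WT 1 and 2 were the lowest, and the NML-KO livers of both sets overlapped.

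Psmd12, a scaffold subunit of the lid, had 8.55, 8.18 and 8.27 in NML-KO and 8.48 and 8.38 in WT Dbp-high livers, against 8.77 and 8.88 in NML-KO and 8.84, 8.82 and 8.91 in WT Dbp-low livers. The sets did not overlap, and the difference was -0.46 (SE 0.07, 1.37-fold lower, limma adjusted p = 0.0034). Psmd6, also of the lid, had 8.42, 8.41 and 8.42 in NML-KO and 8.44 and 8.60 in WT Dbp-high livers, against 8.75 and 8.70 in NML-KO and 8.55, 8.78 and 8.75 in WT Dbp-low livers. WT 2 lay above WT 3, and the others were apart. The difference was -0.24 (SE 0.06, limma adjusted p = 0.0312), kept without WT 2 or WT 3, with an adjusted p of 0.0532 to 0.0921 without any other liver. Psmd3, of the lid too, did not overlap between the sets (8.24 to 8.82 in Dbp-high and 8.90 to 9.02 in Dbp-low livers), with a limma adjusted p of 0.0534 for its difference of -0.34. Psmd1 and Psmd2, the large subunits of the base, had 0.07 and -0.04, and the ubiquitin receptor Psmd4 had -0.0065.

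Assembly factors had 3 of 8 higher and 0 lower (37.5% called), against 12.9% of all genes and 26.4% of the brighter ones when tested alone. Psmg1, a chaperone that helps build the alpha ring, had 7.94, 7.81 and 7.91 in NML-KO and 8.22 and 7.93 in WT Dbp-high livers, against 7.42 and 7.28 in NML-KO and 6.99, 7.46 and 7.21 in WT Dbp-low livers. The sets did not overlap, and the difference was 0.70 (SE 0.11, 1.62-fold higher, limma adjusted p = 0.0027). Its partner Psmg2 had -0.08 (SE 0.09) and did not pass. Psmg4, of a second chaperone pair for the alpha ring, had 6.91, 7.14 and 7.49 in NML-KO and 7.96 and 7.94 in WT Dbp-high livers, against 7.03 and 6.82 in NML-KO and 6.69, 6.96 and 7.05 in WT Dbp-low livers. WT 1 and 2 stood highest, NML-KO 1 lay among the Dbp-low livers, and the difference was 0.65 (SE 0.17, 1.57-fold higher, limma adjusted p = 0.0334). Psmg4 kept its call without NML-KO 1, 2 or 4, and had an adjusted p of 0.0600 to 0.103 without any other liver.

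Psmd9, a chaperone for the ATPase ring, had 7.38, 7.28 and 7.36 in NML-KO and 7.54 and 7.66 in WT Dbp-high livers, against 7.20 and 7.22 in NML-KO and 7.34, 7.23 and 7.24 in WT Dbp-low livers. WT 3 overlapped with the Dbp-high livers, and the difference was 0.23 (SE 0.06, limma adjusted p = 0.0302). It kept its call without NML-KO 2, 3 or 4, and had an adjusted p of 0.0505 to 0.0743 without any other liver. The other ATPase ring chaperones, Psmd5 and Psmd10, had -0.28 and 0.02, Psmg3 had 0.19 and Pomp 0.10, and none of these passed.

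All 5 other regulators were at negative differences, and 2 passed (40.0%), against 12.9% of all genes and 26.4% of the brighter ones when tested alone. Psme1, partner of Psme2 in the interferon-inducible activator ring, had 8.77, 8.71 and 9.06 in NML-KO and 8.94 and 9.24 in WT Dbp-high livers, against 9.46 and 9.37 in NML-KO and 9.29, 9.52 and 9.50 in WT Dbp-low livers. The sets did not overlap, and the difference was -0.46 (SE 0.10, 1.37-fold lower, limma adjusted p = 0.0125). Psme3, which forms a related activator ring in the nucleus, had 9.43, 9.21 and 9.42 in NML-KO and 9.05 and 9.08 in WT Dbp-high livers, against 9.41 and 9.79 in NML-KO and 9.70, 9.57 and 9.63 in WT Dbp-low livers. NML-KO 4 lay among the NML-KO livers of the Dbp-high set, and the difference was -0.41 (SE 0.09, limma adjusted p = 0.0204), lost without NML-KO 5, WT 1 or WT 2 (0.0537 to 0.0746). Psme2 had -0.35 (SE 0.11, limma adjusted p = 0.0708), the activator Psme4 -0.13 and the inhibitor Psmf1 -0.21. Of the genes matched by name alone, Psmc3ip had 5.62, 5.60 and 5.48 in NML-KO and 5.54 and 5.44 in WT Dbp-high livers, against 5.76 and 5.59 in NML-KO and 5.62, 5.75 and 5.48 in WT Dbp-low livers. Psme3ip1 had 7.08, 7.14 and 7.13 in NML-KO and 7.11 and 7.15 in WT Dbp-high livers, against 7.10 and 7.08 in NML-KO and 7.15, 7.08 and 7.17 in WT Dbp-low livers. Neither differed past the threshold, at -0.12 and 0.01.

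Kupffer cell and macrophage markers had a median difference of -0.56 between the Dbp sets, but their list means overlapped. Of the 9 measured markers, 3 were lower in Dbp-high livers, against 7.99% of all genes, and 0 were higher, against 4.92%. The list mean was 7.63 to 8.53 in Dbp-high livers and 8.28 to 9.02 in Dbp-low livers. Hepatocyte markers had 2 of 7 higher and 0 lower, with list means of 13.97 to 14.06 in Dbp-high and 13.89 to 13.98 in Dbp-low livers. Calls in either direction made up 12.9% of all genes and 26.4% of the brighter ones when tested alone. None of the neutrophil, T and B cell, endothelial or stellate cell markers passed. The part of these cells in the differences of Psme1, Psme2 and the other members was not tested. The immunoproteasome subunits that the rule leaves out did not pass in either comparison: Psmb8, Psmb9 and Psmb10 had -0.07, 0.18 and -0.26 in Dbp-high against Dbp-low livers and -0.24, -0.14 and -0.22 in NML-KO against WT livers.

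The Dbp sets were also compared within each genotype, as contrasts of a single fit of genotype by Dbp set over the 10 livers. Both comparisons therefore rest on the same estimate of spread. Within NML-KO livers, 6 of 48 members (12.5%) passed between Dbp-high and Dbp-low, against 4.87% of all genes. Within WT livers, 14 of 48 (29.2%) passed, against 6.32% of all genes. Psmb5, Psmb1 and Psmb7 passed in both. Psmb5 had -0.62 in NML-KO and -0.85 in WT livers, Psmb1 had -0.74 and -0.51, and Psmb7 had 0.58 and 0.64 in the same order. Of the 15 called members, 8 held in each of the 10 fits that left out 1 liver, namely Psmb7, Psmd7 and Psmg1 among those higher and Psmb5, Psmb1, Psma4, Psmd12 and Psme1 among those lower.

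**Figure D4:**
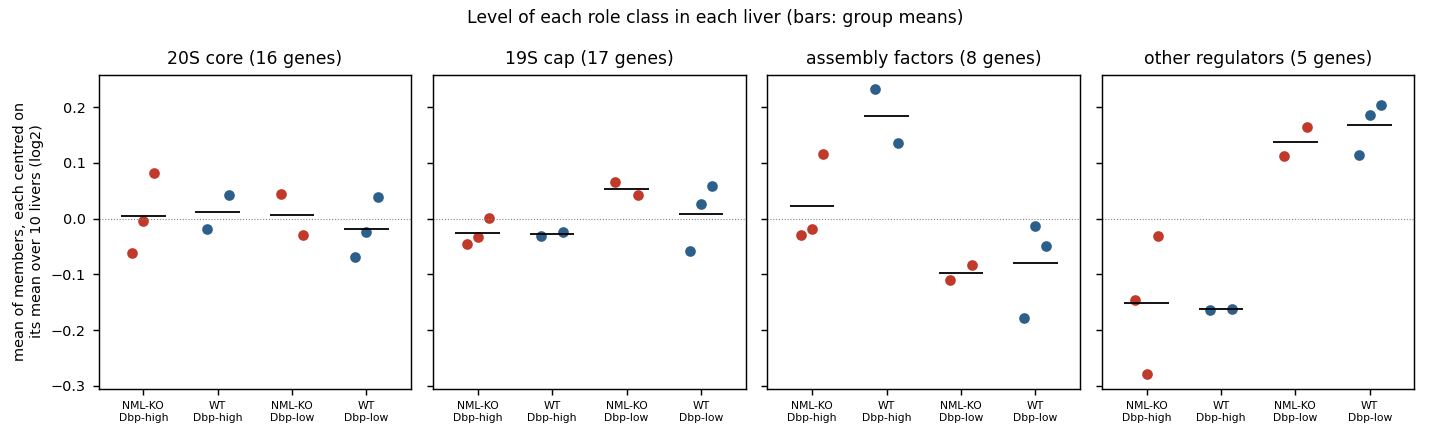
Mean log2 level of the 16 core genes, 17 cap genes, 8 assembly factors and 5 other regulators in each liver (vertical axis), each gene centred on its own mean over the 10 livers, with 1 point per liver, NML-KO in red and WT in blue, and a bar for each group mean. The core stays between -0.07 and 0.08 and the cap between -0.06 and 0.07 in every liver, while the regulators lie at -0.28 to -0.03 in Dbp-high and 0.11 to 0.20 in Dbp-low livers.

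Averaged over a class, the core and the cap stayed near their own mean in every liver. The mean level of the core, with each gene centred over the 10 livers, was -0.06, -0.0040 and 0.08 in NML-KO and -0.02 and 0.04 in WT Dbp-high livers, against 0.04 and -0.03 in NML-KO and -0.07, -0.02 and 0.04 in WT Dbp-low livers. For the other regulators it was -0.15, -0.28 and -0.03 in NML-KO and -0.16 and -0.16 in WT Dbp-high livers, against 0.11 and 0.16 in NML-KO and 0.11, 0.19 and 0.20 in WT Dbp-low livers. The core means overlapped between the sets, and those of the regulators did not. Of the 16 core genes, 3 were called higher and 3 lower, so a level mean does not show that each gene stayed level. The regulator mean covers 5 genes only, and 12.2% of single genes did not overlap between the sets.

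The NML-KO to WT difference of a member was also compared between the Dbp sets. By limma's interaction contrast 0 of 48 members passed, against 0% of all genes, and 8 of 48 had an unadjusted p below 0.05, against 6.49% of all genes. Psmg4 had the smallest (interaction -0.80, SE 0.24, unadjusted p = 0.0085 by limma), with NML-KO minus WT at -0.78 in Dbp-high and 0.03 in Dbp-low livers. Psma7 had -0.34 in Dbp-high and 0.17 in Dbp-low livers, Psmd14 had 0.52 and -0.0028, and Psmc5 had -0.26 and 0.17 in the same order. Pomp and Psme2 had -0.35 and -0.45 in Dbp-high livers, against -0.0091 and -0.02 in Dbp-low livers, and Psmd11 and Psma4 had 0.31 and 0.32, against -0.04 and 0.04.

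Promoter sequences are shown for the 5 called members whose promoter window holds an antioxidant response element or an E-box, elements known from proteasome or clock gene control. RefSeq promoters of build GRCm38.p6, from 250 bases before to 50 after the start, were at hand for 40 of the 48 members in 44 windows, and not for Psma8, Psmb1, Psmb2, Psmb7, Psmc3, Psmd3, Psmd7 and Psmg2. Capitals mark matches on either strand to TGACNNNGC, the antioxidant response element bound by NRF1 and NRF2, or to CACGTG, the E-box bound by the clock activators, which reads alike on both strands.
Psmb5 promoter, chr14:54617946-54618245, minus strand: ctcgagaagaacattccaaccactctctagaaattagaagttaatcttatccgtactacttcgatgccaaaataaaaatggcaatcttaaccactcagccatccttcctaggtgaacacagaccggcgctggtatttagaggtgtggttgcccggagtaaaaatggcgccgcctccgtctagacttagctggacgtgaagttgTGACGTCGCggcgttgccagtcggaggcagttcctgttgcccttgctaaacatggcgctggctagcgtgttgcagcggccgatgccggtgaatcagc
Psmd12 promoter, chr11:107479278-107479577, plus strand: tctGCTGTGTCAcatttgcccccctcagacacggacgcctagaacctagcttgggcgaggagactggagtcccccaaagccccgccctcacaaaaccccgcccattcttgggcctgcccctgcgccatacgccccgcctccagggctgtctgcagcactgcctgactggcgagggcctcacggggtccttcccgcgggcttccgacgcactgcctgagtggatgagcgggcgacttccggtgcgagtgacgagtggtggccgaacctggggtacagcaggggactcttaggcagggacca
Psma4 promoter, chr9:54950609-54950908, plus strand: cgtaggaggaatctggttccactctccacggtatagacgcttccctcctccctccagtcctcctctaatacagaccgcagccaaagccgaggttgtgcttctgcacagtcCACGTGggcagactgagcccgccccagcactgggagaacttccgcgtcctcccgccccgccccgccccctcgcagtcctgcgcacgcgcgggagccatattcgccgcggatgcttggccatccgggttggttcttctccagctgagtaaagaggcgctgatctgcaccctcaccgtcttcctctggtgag
Psmd9 promoter, chr5:123227940-123228239, plus strand: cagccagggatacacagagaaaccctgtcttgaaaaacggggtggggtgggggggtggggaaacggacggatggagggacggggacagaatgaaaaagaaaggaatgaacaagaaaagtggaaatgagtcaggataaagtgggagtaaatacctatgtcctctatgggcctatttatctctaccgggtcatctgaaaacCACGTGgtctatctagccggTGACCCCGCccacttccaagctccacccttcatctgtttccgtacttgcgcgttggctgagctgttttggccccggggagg
Psme3 promoter, chr11:101315963-101316262, plus strand: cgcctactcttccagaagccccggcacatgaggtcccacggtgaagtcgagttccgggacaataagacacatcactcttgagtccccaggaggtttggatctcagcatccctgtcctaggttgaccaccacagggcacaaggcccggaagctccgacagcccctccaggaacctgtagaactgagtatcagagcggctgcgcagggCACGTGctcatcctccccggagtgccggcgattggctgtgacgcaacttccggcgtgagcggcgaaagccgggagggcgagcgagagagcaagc

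The Psmb5 match to TGACNNNGC lies at -47 to -39 from the start and that of Psmd9 at -31 to -23, both in the direction of the gene, and that of Psmd12 at -247 to -239 on the other strand. The E-box lies at -140 to -135 in Psma4, at -51 to -46 in Psmd9 and at -44 to -39 in Psme3. Psmb5, Psmd12, Psma4 and Psme3 fell in Dbp-high livers and Psmd9 rose. TGACNNNGC was found in 6 of 44 member windows (13.6%), against 12.4% of all 32851 windows of the same length, in Psmb5, Psmb6, Psmc6, Psmd12, Psmd9 and Psme4. CACGTG was found in 4 of 44 (9.09%), against 7.15% of all windows, in Psma4, Psmd9, Psme3 and Psme3ip1. The D-box forms TTATGTAA and TTACGTAA were found in 0 of 44, against 0.938% and 0.119% of all windows, and CCAAT in 15 of 44 (34.1%), against 37.4%. These matches describe letters in a window and do not show binding.

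Genes that act with the proteasome were read from 6 lists, with 29 measured members. In NML-KO against WT livers 0 of 29 passed, with a median of -0.01. Psmb8 had the smallest unadjusted p of the 29 there, 0.135 by limma over all genes. The 2 smallest within the longer lists belonged to Zfand5 and Ecpas, of the proteasome-bound proteins, at -0.24 and 0.06, Maff and Nfe2l2, of the NRF1 pathway, at -0.10 and -0.09, and Vcp and Ubqln4, of the shuttle factors and VCP complex, at 0.16 and -0.09. In Dbp-high against Dbp-low livers 11 of 29 (37.9%) passed, against 12.9% of all genes and 26.4% of the brighter ones when tested alone. Of these 11, 4 were higher, against 4.92% of all genes, and 7 were lower, against 7.99% of all genes, with a median difference of -0.06 over the 29. Nfe2l1, which encodes NRF1, was lower in Dbp-high livers, with 9.11, 8.98 and 9.01 in NML-KO and 9.01 and 8.88 in WT Dbp-high livers, against 9.22 and 9.30 in NML-KO and 9.29, 9.24 and 9.24 in WT Dbp-low livers. The sets did not overlap, and the difference was -0.27 (SE 0.05, 1.21-fold lower, limma adjusted p = 0.0075). Maff, a small partner of NRF1, had 0.31 (SE 0.08, limma adjusted p = 0.0258, lost without NML-KO 4, WT 2, WT 3 or WT 4 at 0.0557 to 0.0774), and the other 5 measured genes of the NRF1 pathway did not pass.

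Proteasome-bound proteins had 1 of 8 higher and 3 lower. Uchl5, a deubiquitinase of the cap, fell by 0.35 on the log2 scale (SE 0.07, limma adjusted p = 0.0111), and every Dbp-high liver (6.57 to 6.87) lay below every Dbp-low liver (7.04 to 7.25). Txnl1, a thioredoxin-like protein of the cap, had -0.61 (SE 0.14, limma adjusted p = 0.0203, lost without NML-KO 5, WT 1 or WT 2 at 0.0534 to 0.0716). The ubiquitin ligase gene Ube3c had 0.27 (lost without NML-KO 4 or NML-KO 5 at 0.0552 to 0.0600), and Zfand2a had -0.67 (kept without NML-KO 1, NML-KO 4 or WT 1, at 0.0540 to 0.0886 without any other liver). Sem1, the small cap subunit named outside the Psm series, had 0.55 (SE 0.14, limma adjusted p = 0.0302), without overlap between the sets (7.92 to 8.75 in Dbp-high and 7.57 to 7.72 in Dbp-low livers). Its call was kept without NML-KO 1, NML-KO 2, WT 1 or WT 2, and without any other liver its adjusted p was 0.0560 to 0.0661.

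Upstream of the proteasome, shuttle factors and the VCP complex had 1 of 9 higher and 2 lower (33.3% called). The share was 12.9% of all genes and 26.4% of the brighter ones when tested alone. Vcp, the unfolding ATPase that passes substrates on, had 10.52, 10.41 and 10.46 in NML-KO and 10.35 and 10.52 in WT Dbp-high livers, against 10.22 and 10.01 in NML-KO and 10.01, 9.89 and 10.04 in WT Dbp-low livers, a difference of 0.40 (SE 0.06, limma adjusted p = 0.0035). Faf2, a VCP adaptor of the endoplasmic reticulum, had -0.50 (SE 0.06, limma adjusted p = 0.0011), with 7.94 to 8.16 in Dbp-high and 8.43 to 8.66 in Dbp-low livers. The shuttle factor Rad23b had -0.37 (SE 0.05, limma adjusted p = 0.0017), with 10.09 to 10.23 in Dbp-high and 10.48 to 10.66 in Dbp-low livers. None of these 3 had sets that overlapped. Of the ubiquitin genes and E1 enzymes only Uba6 was measured, with -0.62 (limma adjusted p = 0.0464, kept without NML-KO 2 or NML-KO 3, at 0.0502 to 0.122 without any other liver).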

How the data were processed

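Biotin-labelled RNA of 10 livers was hybridised to arrays, per the labels' protocols. Linear intensity values deposited for 28815 probe sets ran from 18.4 to 29834, with medians of 62.5 to 66.7 per array. The submitters' processing notes name mouse build mm8; the sources used here do not give the background correction, normalization or probe summary. The number of arrays limits the precision.

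Deposited intensities were log2-transformed without further scaling or filter. Of the probe sets, 21780 carry 1 gene symbol in the platform table and were used; 1605 carry several and 5430 are not named there. For a gene with several, the one with the highest mean over 10 arrays was taken, which left 19935 genes. The members had 54 such probe sets; 1 further probe set, shared by Psme2 and Psme2b, was left out. Symbols were updated by gene ID in a RefSeq table (GRCm38.p6), whose coordinates were not used.

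limma 3.58.1 in R 4.3.3 (lmFit, eBayes) compared NML-KO with WT, and Dbp-high with Dbp-low livers beside a genotype term, with Benjamini-Hochberg adjustment over all genes at 0.05. SE and intervals are limma's moderated ones. The members, lists and tests were chosen with earlier results of these data known. Values per liver are given for the 2 members of each role with the smallest p in each comparison, and for Psma8, Psmb11, Psmc3ip and Psme3ip1; for related lists, the 2 genes with the smallest p are named, per liver, by range or by difference. Other called members, Psmb6, Psma5, Psmd3, Psmd14 and Psmg2 were described after their values were seen, as were Ube3c, Zfand2a and Vcp. In each of 5 simulations per comparison, 200 of 19935 genes were changed by 1.2-, 1.5-, 2- or 4-fold, with independent noise for each gene. For NML-KO against WT, 19.2% of 1.2-fold and 70.0% of 1.5-fold changes were recovered. For Dbp-high against Dbp-low, these shares were 23.6% and 73.6%. False calls numbered 7.2 and 8.6 per simulation. These shares hold for that mix of changes only, since the larger changes ease the adjusted threshold for the smaller ones. Alternatives were quantile normalization, median centring, an offset of 16, dim genes left out, the mean of all probe sets, a trended and robust prior, array weights, a replicate block, each liver left out, other thresholds and other model terms.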

Additional observations from a re-analysis of the deposited data

Results flagged for a closer look

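Of the 52 sets of 5 livers of 1 genotype examined for the members described, 1 held a liver that stood apart from the other 4 by Dixon's test at the 95% level, while chance alone would mark about 1 set in 20. It was Psma8 in NML-KO 5, at a log2 intensity of 4.83, against 5.08 to 5.16 in the other NML-KO livers. The mean of Psma8 lay below the median of all genes.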

How the results depend on the processing

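The count of 0 members in NML-KO against WT, and of 0 for the genotype difference between Dbp sets, was the same under every alternative run. Without NML-KO 4, 1 of all genes passed in NML-KO against WT (0 to 1 over the fits that left out a liver). The cap median for that comparison was 0.0573 within Dbp-low livers. Single genes were followed through the alternatives only where they had the smallest p of a comparison or were called members. Among these, signs turned only for genes not called in that comparison. For NML-KO against WT, Psmb1 had 0.0764 and Psme4 -0.0016 within Dbp-low livers. Psmc2 had -0.0113 there with array weights and -0.0432 to 0.0615 with a liver left out. Between the Dbp sets, Psmc6 had 0.0214 with the replicate block and Psmb10 had 0.0116 within WT livers. Signs of other members that were not called turned as well. Within NML-KO livers, Psma3 had 0.02, Pomp -0.07 and Psme4 0.03 between the Dbp sets.

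In Dbp-high against Dbp-low, members called numbered 8 to 17 with a liver left out (8 without NML-KO 5 or WT 1, 9 without WT 4 or WT 5), 7 at a threshold of 0.01 and 6 within NML-KO livers. Whether replicate numbers pair the livers was not settled: deviations of same-numbered livers from their group means correlated at 0.44, 0.26, -0.42, 0.35 and 0.54, and only in replicate 3 do the 2 livers lie in different Dbp sets. With the replicate block they numbered 0, and 2 of all genes passed. By construction that fit sets the NML-KO to WT difference of replicate 3 against the mean of that difference in the other replicates. It thus depends on a single pair with livers in different Dbp sets. All genes called numbered 1625 to 2557 with a liver left out, 971 within NML-KO livers and 1260 within WT livers, which hold fewer livers. The related lists had 6 to 11 called with a liver left out, 3 within NML-KO livers, 5 within WT livers and 0 with the replicate block. Class medians with the replicate block were 0.26 for the core, 0.0516 for the cap, 0.30 for assembly factors and -0.00829 for the other regulators. The cap median was 0.0423 after quantile normalization, -0.0632 with array weights, -0.0523 within NML-KO livers and -0.0745 to 0.0058 with a liver left out. Assembly factors had 0.0680 to 0.17 and the regulators -0.38 to -0.27 with a liver left out, and the regulators had -0.25 within NML-KO livers. Apart from the replicate block, the cause of these shifts was not tested.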

Other observations

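For 5 members the platform table lists more than 1 probe set, and these can be read against each other in Dbp-high against Dbp-low livers. The 3 probe sets of Psma3 had log2 differences of -0.13, -0.15 and -0.13, and the 2 of Psma5 had 0.57 and 0.54. The 2 of Psmb3 had -0.19 and -0.33. For Psmc1 (0.12 and -0.04) and Psmd2 (-0.04 and 0.02) the signs differed between probe sets, at sizes near 0. Whether any of these probe sets reads a processed copy of its gene was not tested.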
